A study of Homo sapiens with 6 samples.

Results

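The 42 genes described here encode the core machinery of macroautophagy and the receptors that select its cargo. They were fixed by name as the initiation kinase complex, the class III phosphatidylinositol 3-kinase (PI3K) complex, the lipid supply factors and readers of phosphatidylinositol 3-phosphate (PI3P), the conjugation enzymes, the ATG8 family, the cargo receptors and 2 regulators. All 42 were found by gene symbol, each in 1 row, among the 60605 genes of the deposited table. Poly(A) RNA had been sequenced from SW620, an established cell line of human colorectal cancer, in 2 groups of 3 libraries. The ELAPOR1 group carried the lentiviral plasmid pLVX-IRES-Puro-ELAPOR1 and the vector group carried the empty plasmid. Cells of both groups had been infected at a multiplicity of 20, selected with puromycin at 2 µg/ml as a stable population, and grown in DMEM with 10% serum without further treatment. ELAPOR1 (older symbol KIAA1324) is a transmembrane protein of endosomes and lysosomes whose full name ties it to apoptosis and autophagy, and the series asked how its overexpression alters gene expression.

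In macroautophagy a double membrane grows around part of the cytoplasm, closes, and fuses with lysosomes, where the content is degraded. The ULK kinase complex starts the process, the PI3K complex marks the growing membrane with PI3P, WIPI proteins read that lipid, and ATG9 and ATG2 bring in membrane lipid. An E1, E2 and E3-like enzyme chain then attaches ATG8 proteins (the LC3 and GABARAP subfamilies) to the membrane. Cargo receptors such as p62 bind ubiquitin-tagged material with one end and ATG8 proteins with the other. Most of these steps are controlled on proteins, by phosphorylation, lipidation and turnover in the lysosome, so mRNA levels alone are no measure of autophagic flux.

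The libraries held 16401813 to 20571924 counts. ELAPOR1 stood at 11.5, 11.0 and 8.73 CPM (counts scaled to library size) in the vector libraries and at 20770 to 21490 CPM in the ELAPOR1 libraries, in keeping with the label of each of the 6 libraries; reads of the construct and of the cells' own gene are counted together. Of 10 colon epithelial markers 9 were tested, and CDX1 was at 0 to 2 counts. EPCAM, KRT18 and VIL1 were not called, KRT8, KRT19, KRT20, CDX2 and CEACAM5 fell and CDH17 rose. Log2 fold changes were -0.138 for KRT8, -0.454 for KRT19, -0.556 for CDX2, -1.67 for KRT20, -3.003 for CEACAM5 and 1.049 for CDH17. Apart from that of KRT8, these changes were larger than that of any of the 42 autophagy genes. The summed CPM of the list was 8110 to 8530 in vector and 7620 to 7630 in ELAPOR1 libraries. Most of this sum was KRT8 and KRT18, at means of 4163 and 2425 CPM in vector libraries, so it says little about the other markers. The part of these marker changes in the results below was not tested. Markers of other cells were low. Summed per list, fibroblast markers lay at 3.0 to 3.46 CPM in vector and 3.2 to 3.66 CPM in ELAPOR1 libraries. Immune markers lay at 5.18 to 7.61 and 7.13 to 8.0 CPM, most of it LYZ, at 4.21 to 7.05 and 6.23 to 6.64 CPM. Endothelial markers lay at 2.42 to 2.73 and 1.97 to 2.81 CPM, with CDH5 at 0 throughout. Of these 14 markers 6 were tested, and edgeR, described next, called 0 of them, none with an unadjusted p under 0.05. In bulk RNA fewer expressing cells and less RNA per cell cannot be told apart.

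Autophagy genes moved in both directions and by small amounts. Of the 42 members, 7 rose and 6 fell in ELAPOR1 cells at an adjusted p under 0.05 (edgeR's quasi-likelihood test, adjusted over all 16003 genes that passed the filter on low counts). The 13 called members are 31.0% of the list, where 21.4% of all tested genes were called; the 7 higher are 16.7% against 10.0% of all genes, and the 6 lower are 14.3% against 11.4%. ATG13, ATG2A, WIPI2, ATG3, ATG7, SQSTM1 and NBR1 were the genes that rose. MAP1LC3B, GABARAP, GABARAPL2, OPTN, TAX1BP1 and WDFY3 were those that fell. Called changes lay between 0.13 and 0.33 on the log2 scale in size, while called genes at large had a median size of 0.28. The median log2 fold change of the members was 0.079, beside 0.0041 for all tested genes; it was 0.0337 without vector library 2, 0.0521 to 0.0706 without any other 1 library and 0.0352 by limma on log2(FPKM + 1). The CPM values of the groups did not overlap for 20 of the 42 members, where this held for 33.8% of all tested genes. In the authors' deposited table, where 19.1% of genes with an adjusted p passed 0.05, 12 of the members passed, 7 higher and 5 lower, all of them among the 13 named here; WDFY3 did not pass there. Other settings gave 11 members with library sizes alone (22.1% of all genes called), 13 with a replicate block (21.0%), 10 with DESeq2 (16.0%), 5 with limma on log2(FPKM + 1) (14.3%), 7 to 10 on leaving out 1 library (16.4% to 19.5%), 8 below an adjusted p of 0.01 (14.0%), and 0 with a change of at least 0.5 (5.46%). The count was 8 without vector library 2, 7 without ELAPOR1 library 2 and 8 without ELAPOR1 library 3.

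**Figure D1:**
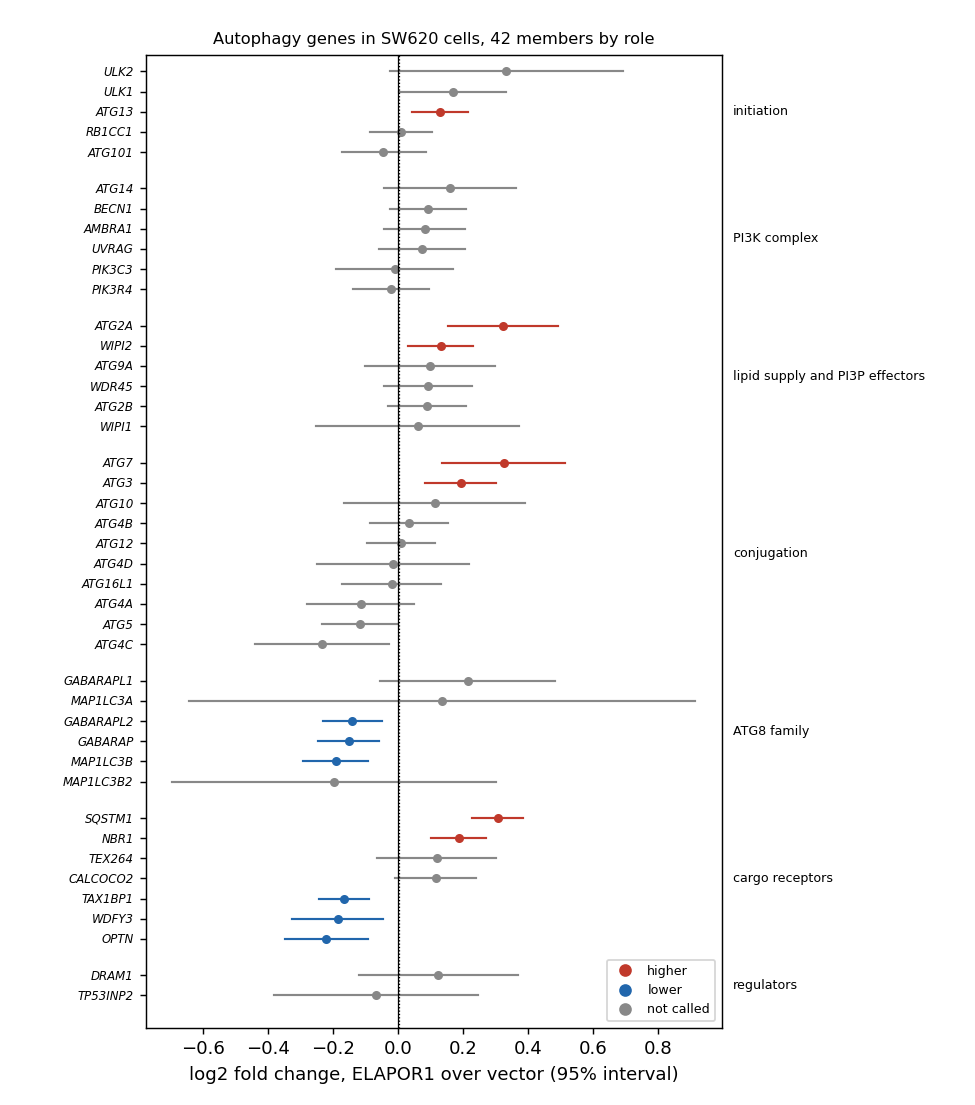
Log2 fold change of each of the 42 autophagy genes in ELAPOR1 over vector cells (x axis), grouped by role, with points for the edgeR estimate and bars for its 95% interval; red and blue mark an adjusted p under 0.05, the solid line is 0 and the dotted line the median of all tested genes. The 7 higher members lie between 0.13 and 0.33 and the 6 lower between -0.14 and -0.22 (log2), and the ATG8 family holds 3 lower members and 0 higher.

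Of the 29 members without a call, 26 had 95% intervals wholly within 0.5 of 0 on the log2 scale and 15 within 0.25. The exceptions at 0.5 were ULK2, MAP1LC3A and MAP1LC3B2, the members with the fewest counts. ULK1, ATG4C and ATG5 had an unadjusted p under 0.05 but did not pass after adjustment.

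Members differed in level by 111-fold. On the FPKM scale (fragments scaled to exonic length and library size, which allows comparison between genes), GABARAP was highest in vector cells at 53.7 ± 2.96 (SD, n = 3), followed by GABARAPL2 at 35.9 ± 0.854. TAX1BP1 at 18.4 ± 0.384, SQSTM1 at 18.0 ± 0.424 and MAP1LC3B at 17.4 ± 0.592 followed, and TAX1BP1 and SQSTM1 did not differ beyond their spread. The leading 5 transcripts thus encode ATG8 proteins and cargo receptors. PIK3C3, the catalytic subunit of the PI3K complex, stood at 1.52 ± 0.115 FPKM and its scaffold PIK3R4 at 9.88 ± 0.191. ULK2 was lowest at 0.483 ± 0.0252 FPKM, below its paralog ULK1 at 3.29 ± 0.150. At least 100 counts lay behind every library's value for 39 of the members, and the lowest count was 14, for MAP1LC3A.

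**Figure D2:**
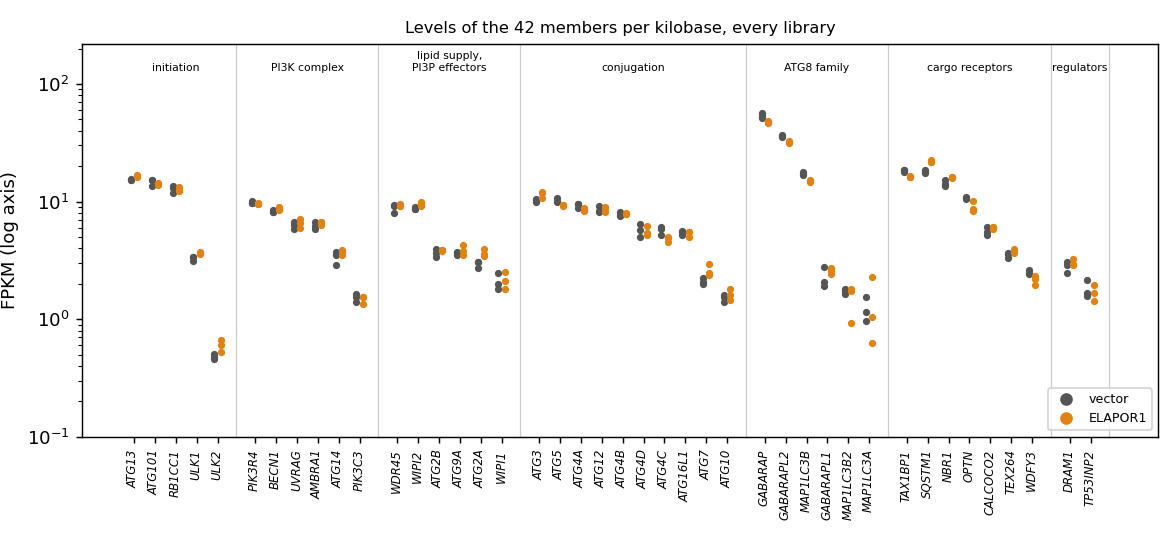
FPKM of the 42 members (log axis) in every library, grouped by role and ordered by the vector mean, with grey points for the 3 vector and orange points for the 3 ELAPOR1 libraries. GABARAP at 53.7 and GABARAPL2 at 35.9 FPKM in vector cells stand highest and ULK2 at 0.483 FPKM lowest.

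The initiation complex consists of a ULK kinase, the scaffold RB1CC1 (FIP200) and the adaptor pair ATG13 and ATG101. Of its 5 genes, ATG13 rose and the other 4 were not called (20.0% called, beside 21.4% of all tested genes called and 10.0% called higher). ATG13 (chromosome 11, 46617527 to 46674818, plus strand) read 105, 108 and 106 CPM in vector cells and 115, 118 and 117 CPM in ELAPOR1 cells. The 3 ELAPOR1 libraries lay within a narrow band above all vector libraries. Its log2 fold change of 0.13 (SE 0.043) passed at an adjusted p = 0.0228. The adjusted p was 0.0569 without vector library 1, 0.0723 without vector library 3, 0.0865 without ELAPOR1 library 2 and 0.0722 without ELAPOR1 library 3, 0.0627 with library sizes alone as scaling, 0.0564 with no filter, 0.0565 by DESeq2 and 0.0637 by limma on log2(FPKM + 1). ULK1 read 25.0 ± 1.22 CPM in vector and 28.1 ± 0.529 CPM in ELAPOR1 cells, with a log2 fold change of 0.17 (95% interval 0.0045 to 0.33, adjusted p 0.144). For ULK2 the value was 0.33 with an interval of -0.025 to 0.69. The values of RB1CC1 and ATG101 were 0.010 and -0.044.

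None of the 6 genes of the PI3K complex passed, and 0 had an unadjusted p under 0.05 by edgeR; DESeq2 and limma on FPKM also called 0. BECN1 (Beclin 1), the regulatory subunit, read 51.6, 53.9 and 52.5 CPM in vector cells and 57.9, 56.4 and 54.4 CPM in ELAPOR1 cells. These groups did not overlap, yet the log2 fold change of 0.093 (interval -0.024 to 0.21) had an adjusted p = 0.284. BECN1 overlaps PSME3 on the other strand, which had 22483 counts against 5980 and fell by 0.30 (adjusted p 3.04e-10). ATG14, which directs the complex to autophagosomes, and UVRAG, which directs it to endosomes, had log2 fold changes of 0.16 and 0.075. Leaving out 1 library moved ATG14 between 0.060 (without vector library 2) and 0.23 (without vector library 3), and UVRAG between 0.0035 (without ELAPOR1 library 1) and 0.14 (without ELAPOR1 library 2). AMBRA1, a Beclin 1 partner, stood at 0.082, PIK3C3 at -0.0096 and PIK3R4 at -0.021. For PIK3R4 the interval of -0.14 to 0.097 was narrow.

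Among lipid supply factors and PI3P readers, ATG2A and WIPI2 rose, and WIPI2 lay at the threshold. They are 33.3% of 6 genes, beside 10.0% of all tested genes called higher and 21.4% called in either direction. All 6 log2 fold changes were above 0. ATG2A (chromosome 11, 64894546 to 64917211, minus strand) encodes a bridge-like lipid transfer protein that feeds the growing membrane. It read 23.7, 24.0 and 21.3 CPM in vector cells and 31.1, 27.4 and 28.1 CPM in ELAPOR1 cells, 25.1% higher, with no overlap of the groups. Its log2 fold change was 0.32 (SE 0.085, adjusted p = 0.00282, and 0.0602 by limma on log2(FPKM + 1)). Its paralog ATG2B read 52.0 ± 3.76 CPM in vector cells, with a log2 fold change of 0.091 (adjusted p = 0.312). On the FPKM scale, which allows for length, ATG2B stood at 3.67 ± 0.275 and ATG2A at 2.95 ± 0.194 in vector cells. In ELAPOR1 cells the values were 3.85 ± 0.0503 for ATG2B and 3.65 ± 0.238 for ATG2A. The difference between the paralogs was not tested. WIPI2 (chromosome 7, 5190196 to 5233840, plus strand), the PI3P reader that recruits the conjugation machinery, read 76.6, 77.6 and 80.5 CPM in vector cells and 83.15, 83.9 and 89.95 CPM in ELAPOR1 cells. All ELAPOR1 libraries were higher, but its adjusted p of 0.0470 lay at the threshold. Leaving out any 1 of the 6 libraries ended that call, with adjusted p between 0.0533 (without ELAPOR1 library 1) and 0.293 (without ELAPOR1 library 3), as did no filter at 0.104, library sizes alone at 0.105, DESeq2 at 0.133 and limma on log2(FPKM + 1) at 0.192. WIPI1 and WDR45 (WIPI4), the other PI3P readers among the members, had log2 fold changes of 0.061 and 0.093, and ATG9A, the membrane scramblase, 0.099. WDR45B (WIPI3), which is in the wider list below and not among the members, went the other way at -0.088 (edgeR adjusted p 0.151).

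Of the 10 conjugation genes 2 rose and 0 fell, 20.0% called beside 21.4% of all tested genes, so the share called in either direction is near the background. By direction, 20.0% were higher beside 10.0% of all tested genes, and 0 lower beside 11.4%. ATG7, the E1-like enzyme (chromosome 3, 11272309 to 11557665, plus strand), read 19.7, 17.5 and 18.1 CPM in vector cells and 22.2, 20.9 and 26.15 CPM in ELAPOR1 cells. Every ELAPOR1 library was above every vector library, with ELAPOR1 library 3 apart from the other two. The log2 fold change of 0.33 (SE 0.095) had an adjusted p = 0.00796, which became 0.151 without ELAPOR1 library 3 and 0.0507 without vector library 2. ATG7 had 2273 counts in all and overlaps VGLL4 on the other strand, which had 8745 and a log2 fold change of -0.13 (adjusted p 0.0626). ATG3, the E2-like enzyme (chromosome 3, 112532510 to 112562046, minus strand), read 62.5, 63.7 and 60.2 CPM in vector cells and 66.4, 73.0 and 73.7 CPM in ELAPOR1 cells. It was 14.4% higher (log2 fold change 0.19, SE 0.055, adjusted p = 0.00558, and 0.0581 without ELAPOR1 library 3). By limma on log2(FPKM + 1) the adjusted p was 0.142 for ATG7 and 0.0826 for ATG3. SLC35A5, which overlaps ATG3 on the other strand, had a log2 fold change of 0.040.

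The E3-like complex that receives ATG8 proteins at the membrane was not called. ATG12 stood at 0.0092, ATG16L1 at -0.019 and ATG5 at -0.12, the last with 57.4 ± 2.69 CPM in vector and 53.0 ± 0.480 CPM in ELAPOR1 cells, no overlap and an adjusted p of 0.153. ATG10, the E2-like enzyme for ATG12, was at 0.11. The ATG4 proteases, which prime ATG8 proteins and release them from membranes, stood at -0.11 for ATG4A, 0.034 for ATG4B, -0.23 for ATG4C and -0.015 for ATG4D. ATG4C read 17.7 ± 1.34 CPM in vector and 15.1 ± 0.850 CPM in ELAPOR1 cells, without overlap, at an adjusted p of 0.101.

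The promoter of ATG3 is shown because it was the 1 member promoter with a full match to the extended E-box of the CLEAR element, the site bound by TFEB, a regulator of lysosome and autophagy genes. RefSeq promoters (GRCh38.p14, 250 bases before to 50 after the start) matched 37 of the 42 members, with 47 windows; RB1CC1, UVRAG, ATG4D, MAP1LC3A and WDFY3 had no entry. The motif TCACGTGA on both strands was in 1 of the 47 windows and in 0.980% of all 35116 windows. Its core CACGTG, which lies within TCACGTGA, was in 2 (ATG3 and ATG14) and in 7.26% of all. In ATG3 an E-box begins 18 bases before the start and the extended one 4 bases after it. The 30 bases from chr3:112561951-112561980 on the minus strand read as follows, with capitals for both matches.
ATG3: CACGTGccgggagagtctagtgTCACGTGA
The core of the antioxidant response element, TGACNNNGC on both strands, was in 3 member windows (ATG101, CALCOCO2 and MAP1LC3B) and in 13.3% of all windows. The forkhead element TGTTTAC was in 2 (CALCOCO2 and WDR45) and in 3.42% of all. A match is a description of these letters and no evidence of binding.

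The 3 most abundant ATG8 genes were the ones that fell, 3 of 6 where 11.4% of all tested genes fell. MAP1LC3B, GABARAP and GABARAPL2 were lower in every ELAPOR1 library than in any vector library, which held for 17.4% of all tested genes, and 0 of the 6 genes of the family were called higher by edgeR, DESeq2 or limma on FPKM. MAP1LC3B, which encodes LC3B, the usual marker protein of autophagosomes (chromosome 16, 87383953 to 87404779, plus strand), read 84.0, 86.5 and 90.1 CPM in vector cells and 78.4, 76.0 and 73.8 CPM in ELAPOR1 cells. It fell by 12.4% (log2 fold change -0.19, SE 0.050, adjusted p = 0.00260) and kept its call under all 16 alternatives of scaling, filter, tool and left-out library. GABARAP (chromosome 17, 7240008 to 7242449, minus strand), founder of the other subfamily, read 98.4, 110.3 and 104 CPM against 94.0, 92.1 and 95.6 CPM. It fell by 9.94%, and its vector libraries were more spread out than its ELAPOR1 libraries. The log2 fold change was -0.15 (SE 0.047, adjusted p = 0.0130), against an adjusted p of 0.161 without vector library 2 and 0.0680 without ELAPOR1 library 2. GABARAPL2 (GATE-16; chromosome 16, 75566375 to 75577881, plus strand) read 107, 110.4 and 105 CPM against 96.7, 96.9 and 99.4 CPM. It fell by 9.20%, with an adjusted p = 0.0177 that became 0.0952 without vector library 2, 0.0627 without ELAPOR1 library 1 and 0.0642 without ELAPOR1 library 2.

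The scarce ATG8 genes were not called and were less precisely measured. GABARAPL1 read 11.1, 8.33 and 7.70 CPM in vector cells and 10.5, 11.2 and 9.93 CPM in ELAPOR1 cells, overlapping, at a log2 fold change of 0.22 with an interval of -0.053 to 0.48. MAP1LC3A read 1.33, 1.11 and 1.76 CPM against 1.23, 0.731 and 2.64 CPM, and its interval of -0.64 to 0.92 leaves its direction unmeasured. MAP1LC3B2 read 3.32, 3.44 and 3.15 CPM against 1.78, 3.34 and 3.48 CPM, so 1 ELAPOR1 library alone lay low.

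MAP1LC3B2 is uncertain as a separately counted gene, because its coding sequence is nearly that of MAP1LC3B. Their 375-base coding sequences (GENCODE 29, GRCh38) differ at 2 bases and share an identical run of 307. Counted from the first base of the start codon, the differences from MAP1LC3B to MAP1LC3B2 are C30G and A338G. The stretches of bases 1 to 60 and 310 to 369 that hold them are shown, with the differing base in capitals.
MAP1LC3B, bases 1 to 60: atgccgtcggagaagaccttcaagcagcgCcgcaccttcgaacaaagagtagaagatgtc
MAP1LC3B2, bases 1 to 60: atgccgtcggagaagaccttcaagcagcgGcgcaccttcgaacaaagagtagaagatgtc
MAP1LC3B, bases 310 to 369: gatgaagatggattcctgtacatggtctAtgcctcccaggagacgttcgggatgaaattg
MAP1LC3B2, bases 310 to 369: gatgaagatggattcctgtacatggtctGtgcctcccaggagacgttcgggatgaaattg
The handling of reads that match both was not given in the sources used here. The exonic length is 5037 bases for MAP1LC3B and 1925 for MAP1LC3B2, and the bases outside the coding sequence were not compared. The other ATG8 genes are well separated: the next closest coding sequences, GABARAP and GABARAPL1, share 76.6% of 351 aligned bases with a longest identical run of 14, MAP1LC3A and MAP1LC3B share 73.6%, and GABARAP and MAP1LC3B 53.7%.

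Summed over the 6 ATG8 genes, FPKM went from 109, 116 and 112 in the vector libraries to 99.2, 98.99 and 102 in the ELAPOR1 libraries. These FPKM are scaled to library totals that include the reads of ELAPOR1 itself. Those were 225 of 19410332 counts in vector library 1 and 349496 of 16457436 in ELAPOR1 library 1. The part of this in the lower sum was not tested. GABARAP made up 46.6% to 49.1% of the sum in vector and 47.4% to 48.0% in ELAPOR1 libraries, GABARAPL2 31.4% to 32.8% and 32.0% to 32.3%, and MAP1LC3B 14.9% to 16.1% and 14.2% to 15.5%. The ranges of the groups overlap for each of the 3.

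Promoters of the 3 genes that fell are shown beside that of SQSTM1, the member with the smallest adjusted p, which rose. Each sequence is the 150 bases before the RefSeq start; that of MAP1LC3B lies inside the gene as the deposited table bounds it (GRCh38.p14; for SQSTM1 the most upstream of 3 starts), and capitals mark the GC box GGGCGG on either strand, a site of general promoter factors chosen after the sequences were seen. It was in 32 of the 47 member windows and in 15786 of the 35116 windows of all genes.
MAP1LC3B, chr16:87392186-87392335, plus strand: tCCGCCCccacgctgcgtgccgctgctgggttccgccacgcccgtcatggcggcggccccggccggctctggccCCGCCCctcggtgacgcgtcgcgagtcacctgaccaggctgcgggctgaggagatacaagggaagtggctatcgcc
GABARAP, chr17:7242450-7242599, minus strand: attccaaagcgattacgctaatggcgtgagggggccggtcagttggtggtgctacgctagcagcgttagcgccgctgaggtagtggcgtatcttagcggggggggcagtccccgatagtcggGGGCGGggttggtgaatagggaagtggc
GABARAPL2, chr16:75566229-75566378, plus strand: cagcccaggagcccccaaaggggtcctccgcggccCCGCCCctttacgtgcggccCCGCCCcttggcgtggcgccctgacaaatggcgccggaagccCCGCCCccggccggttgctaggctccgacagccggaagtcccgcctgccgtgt
SQSTM1, chr5:179806243-179806392, plus strand: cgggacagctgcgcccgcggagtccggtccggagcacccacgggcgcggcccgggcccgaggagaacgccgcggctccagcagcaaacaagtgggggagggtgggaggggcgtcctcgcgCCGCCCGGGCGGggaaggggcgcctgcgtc
The GC box in each of these sequences is a description, and any link to the direction of change was not tested. The antioxidant response element core of MAP1LC3B lies 46 bases before its start, in chr16:87392276-87392305, where capitals mark it.
MAP1LC3B: cgtcgcgagtcaccTGACCAGGCtgcgggc

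Cargo receptor genes moved in opposite directions, with 2 of 7 higher (28.6%, beside 10.0% of all tested genes) and 3 lower (42.9%, beside 11.4%). SQSTM1, which encodes p62, the receptor for ubiquitinated aggregates (chromosome 5, 179806398 to 179838078, plus strand), read 131, 138 and 135 CPM in vector cells and 167, 163 and 170.2 CPM in ELAPOR1 cells. Within each group the libraries differed by far less than the gap between groups. It was 23.8% higher (log2 fold change 0.31, SE 0.040, adjusted p = 2.2e-09) and kept its call under all 16. MGAT4B, which overlaps SQSTM1 on the other strand, had 12445 counts in all against 16523 for SQSTM1 and rose by 0.13 (adjusted p 0.0267); its share in the SQSTM1 reads was not tested. NBR1, a p62 partner with the same ubiquitin and ATG8 binding design (chromosome 17, 43170481 to 43211689, plus strand), read 118, 114 and 126 CPM in vector cells and 137, 134 and 137 CPM in ELAPOR1 cells. It was 13.9% higher without overlap (log2 fold change 0.19, SE 0.043, adjusted p = 0.000484, and 0.0528 by limma on log2(FPKM + 1)). The unnamed gene ENSG00000267002 overlaps NBR1 on the other strand, with 3083 counts against 13978 and a log2 fold change of 0.27 (adjusted p 0.0115).

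TAX1BP1, a ubiquitin receptor that works with p62 and NBR1 (chromosome 7, 27739331 to 27844564, plus strand), read 169, 170.2 and 164 CPM in vector cells and 149, 148 and 152 CPM in ELAPOR1 cells. It fell by 10.8%, with no overlap, a log2 fold change of -0.16 (SE 0.039) and an adjusted p = 0.000732, kept under all 16. OPTN (optineurin), a receptor for damaged mitochondria and bacteria (chromosome 10, 13099449 to 13138308, plus strand), read 53.2, 54.3 and 56.4 CPM against 43.4, 44.7 and 52.6 CPM. ELAPOR1 library 3 lay close to the vector range and the other two well below it. The log2 fold change of -0.22 had an adjusted p of 0.00722, against 0.0873 without ELAPOR1 library 1, 0.0654 without ELAPOR1 library 2 and 0.0766 by limma on log2(FPKM + 1). WDFY3 (ALFY; chromosome 4, 84669597 to 84966690, minus strand), a scaffold for aggregate clearance, read 44.2, 41.0 and 41.8 CPM against 40.1, 37.8 and 33.95 CPM. Its adjusted p of 0.0476 at a log2 fold change of -0.185 became 0.165 without vector library 1, 0.0543 without vector library 2, 0.0819 without vector library 3, 0.0802 without ELAPOR1 library 2, 0.306 without ELAPOR1 library 3, 0.0622 with no filter, 0.144 by DESeq2 (0.0551 with a local dispersion trend) and 0.226 by limma on log2(FPKM + 1). CALCOCO2 (NDP52) read 49.8, 45.8 and 43.1 CPM against 51.1, 50.5 and 48.8 CPM, a log2 fold change of 0.12 (95% interval -0.0099 to 0.24, adjusted p 0.201). TEX264, a receptor for the endoplasmic reticulum (ER), read 18.75, 20.4 and 20.7 CPM against 22.9, 20.9 and 21.2 CPM, at 0.12 (adjusted p 0.409); it overlaps RAD54L2 on the same strand, which was at -0.13.

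**Figure D3:**
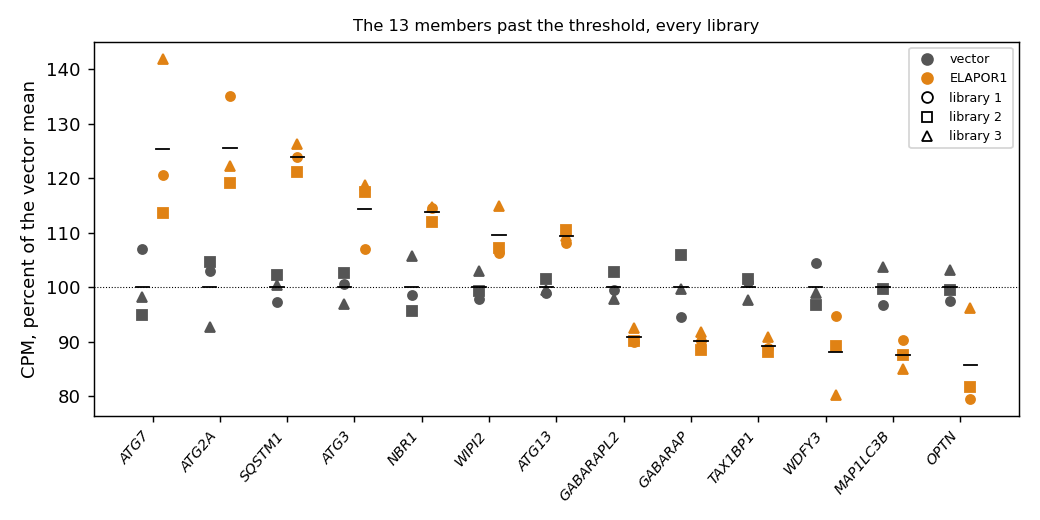
CPM of the 13 called members in each library as a percentage of the gene's vector mean (y axis), ordered by log2 fold change, with grey for vector, orange for ELAPOR1, marker shapes for library numbers and black bars for group means. SQSTM1 and TAX1BP1 show tight groups, while ELAPOR1 library 3 stands apart for ATG7, OPTN and WDFY3.

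The proportions among receptors differed between the groups. Of the FPKM summed over SQSTM1, NBR1, OPTN, TAX1BP1 and CALCOCO2, SQSTM1 made up 26.3%, 27.5% and 26.8% in the vector libraries and 32.0%, 31.6% and 31.5% in the ELAPOR1 libraries. TAX1BP1 went from 27.9%, 27.9% and 26.7% to 23.5%, 23.6% and 23.2%, and OPTN from 16.0 ± 0.372% to 13.1 ± 1.09% (SD, n = 3). The ratio of SQSTM1 to TAX1BP1 was 0.941, 0.986 and 1.01 in vector cells and 1.36, 1.34 and 1.36 in ELAPOR1 cells, so that near-equal transcripts became unequal in every ELAPOR1 library. The sum itself was 67.0 ± 0.347 FPKM in vector and 69.2 ± 1.57 FPKM in ELAPOR1 cells. These ratios were chosen after the single-gene values were seen and are given without a test.

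**Figure D4:**
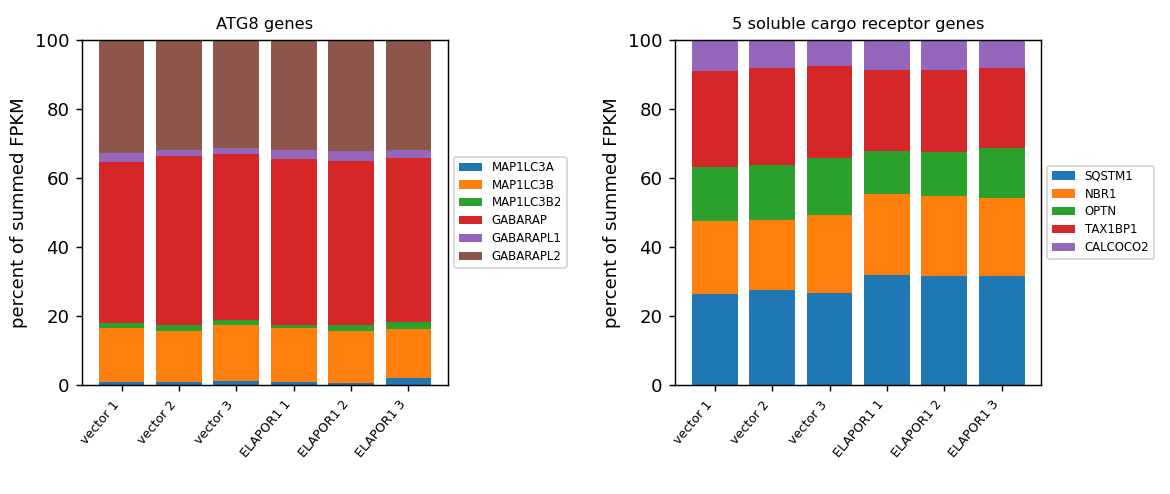
Share of each gene in the summed FPKM of the 6 ATG8 genes (left) and of 5 cargo receptor genes (right), 1 stacked bar per library. The shares of GABARAP, GABARAPL2 and MAP1LC3B overlap between the groups, while the SQSTM1 share is 26.3% to 27.5% in vector and 31.5% to 32.0% in ELAPOR1 libraries.

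The 2 regulators were not called, and 0 had an unadjusted p under 0.05 by edgeR; DESeq2 and limma on FPKM also called 0. DRAM1, a p53 target of the lysosomal membrane, had a log2 fold change of 0.13, and TP53INP2 (DOR), a nuclear partner of LC3, of -0.067.

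A wider list of autophagy genes outside the core machinery was read from the same fit. Of its 54 genes that passed the filter on low counts, 12 rose and 6 fell (33.3% called, beside 21.4% of all tested genes), with a median of 0.0022. Of 8 ER-phagy receptors, which tether fragments of the ER to ATG8 proteins, 3 rose (37.5%, beside 10.0% of all tested genes) and 1 fell (12.5%, beside 11.4%). RETREG3 read 17.7, 19.4 and 19.7 CPM in vector cells and 27.9, 30.0 and 26.1 CPM in ELAPOR1 cells, 48.0% higher with an adjusted p of 5.42e-07, and ATL3 rose by 0.44 (adjusted p 0.000164). RTN3, a more abundant receptor, fell by 0.11 from 177, 187 and 189 to 175, 166 and 170.1 CPM, a call lost at 0.0932 without vector library 2, 0.135 without vector library 3, 0.140 without ELAPOR1 library 2, 0.0756 without ELAPOR1 library 3 and 0.0566 by DESeq2. RETREG3 overlaps TUBG1 on the other strand, which had 5451 counts against 2564 and a log2 fold change of 0.12 (adjusted p 0.165).

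Of 9 tested genes of mitophagy, the removal of mitochondria, 2 fell and 0 rose. The 22.2% called lie beside 21.4% of all tested genes, so the share called in either direction is near the background. By direction, 22.2% were lower beside 11.4% of all tested genes, and 0 higher beside 10.0%. BNIP3L (NIX), an outer membrane receptor and known hypoxia target, read 61.2, 49.1 and 64.95 CPM in vector cells and 38.75, 39.0 and 45.4 CPM in ELAPOR1 cells. It fell by 29.5% (log2 fold change -0.50, adjusted p = 2.27e-08). NIPSNAP1 was at -0.15 with an adjusted p of 0.0249, which was 0.455 without vector library 2, 0.0750 without ELAPOR1 library 1, 0.143 without ELAPOR1 library 3, 0.117 by DESeq2 and 0.156 by limma on log2(FPKM + 1); it overlaps THOC5 on the same strand, which was at -0.17. VMP1, an ER scramblase that works with ATG2 and ATG9 in membrane growth, rose from 164, 167 and 163 CPM to 216, 225 and 225 CPM, 34.8% higher with an adjusted p of 5.65e-16. It is the gene of this wider list with the smallest adjusted p.

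Genes of fusion and maturation went both ways, with 4 of 13 higher (30.8%, beside 10.0% of all tested genes) and 2 lower (15.4%, beside 11.4%). Of the 4, VAMP8 lost its call under 6 and EPG5 under 9 of the 16 alternatives. The sub-list was drawn up by hand, and GRAMD1A, among the 2 lower, fits its name only loosely. TP53INP1, among the 4 higher, is placed here although its paralog TP53INP2 stands among the regulators. SNAP29, the SNARE that joins autophagosome and lysosome membranes, rose by 0.27 (adjusted p 0.00101) and overlaps PI4KA on the other strand, which rose by 0.15 (adjusted p 0.0423). YKT6, a SNARE that acts beside it, fell by 0.22 from 188 ± 7.59 to 161.5 ± 4.91 CPM (adjusted p 7.42e-06), and GRAMD1A, a sterol transporter, fell by 0.27 (adjusted p 0.000869). TP53INP1, the paralog of TP53INP2, rose by 1.105 on the log2 scale from 1.69, 1.26 and 1.70 CPM to 2.09, 3.34 and 4.49 CPM. It had 265 counts in all, overlaps NDUFAF6 on the other strand with 2037 counts, and lost its call without ELAPOR1 library 3, at 0.82 with an adjusted p of 0.0933.

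**Figure D5:**
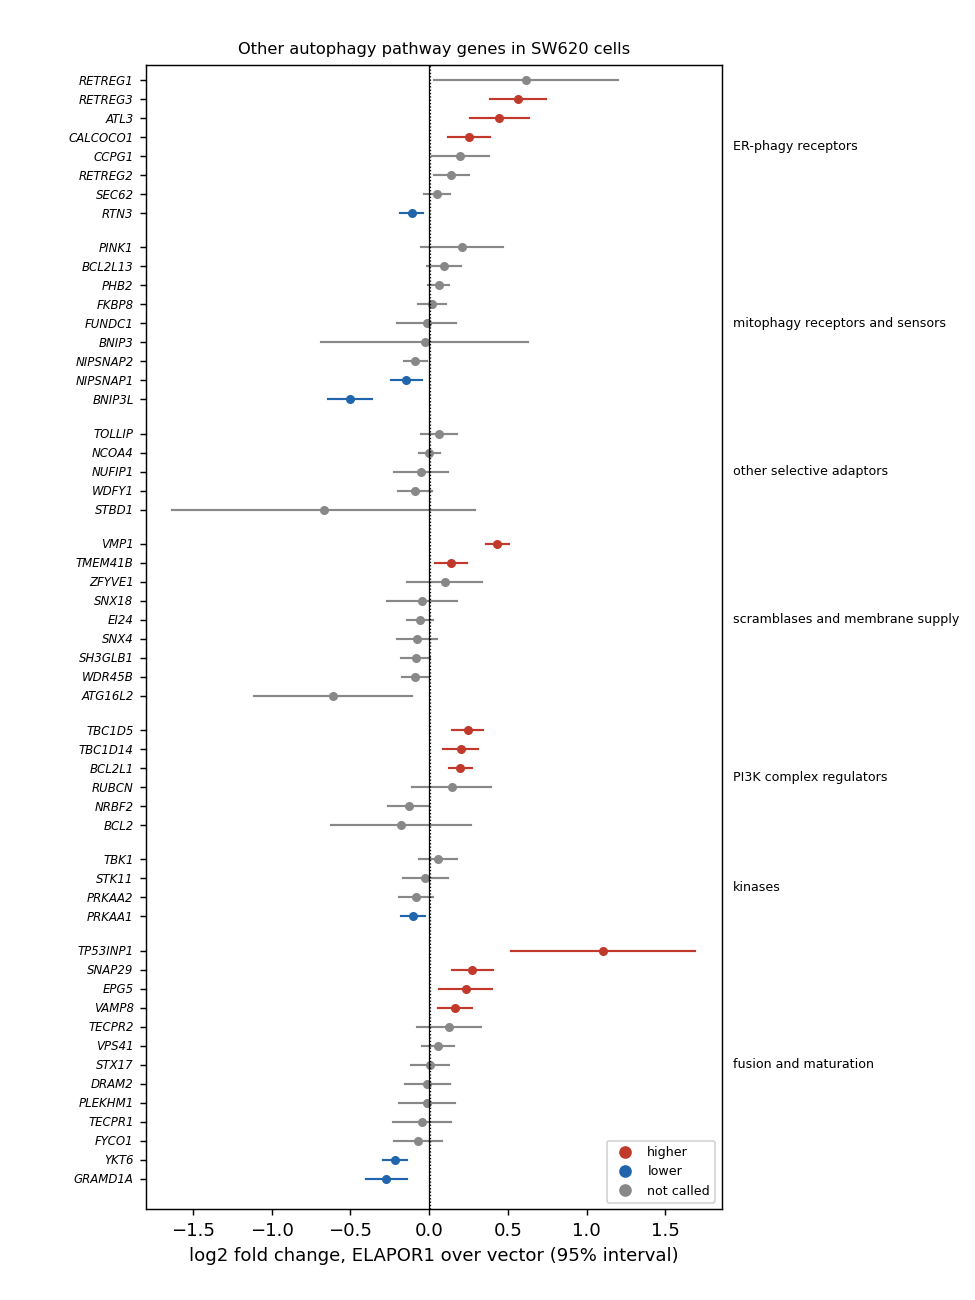
Log2 fold change of the 54 tested genes of the wider autophagy pathway in ELAPOR1 over vector cells (x axis), by role, with 95% intervals; red and blue mark an adjusted p under 0.05. RETREG3, ATL3, VMP1 and TP53INP1 are the highest called genes and BNIP3L the lowest.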

How the data were processed

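Poly(A) RNA of 6 SW620 libraries (3 per group) was analysed. The deposited read counts per gene were used without normalization by the authors; the submitters' processing notes name HTSeq 0.6.1, HISAT2 2.0.1, cutadapt 1.9.1, DESeq2 and GRCh38. The deposited FPKM values lay within 0.01 of count over exonic length and library total for all 142222 values with a count. The authors' deposited comparison gives log2 fold changes, their Wald statistics (a score), mean normalized signal (baseMean) and p-values; only its log2 fold changes and adjusted p were read. Use of strand and handling of multiply matching reads are not given in the sources used here. Columns were matched by name, with K read as the ELAPOR1 construct (KIAA1324) and NC as negative control. Gene coordinates are those of the deposited table.

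The main test was edgeR's two-sided quasi-likelihood test (edgeR 4.0.16, R 4.3.3) with TMM scaling, the filterByExpr filter and Benjamini-Hochberg adjustment over all tested genes. Standard errors divide the absolute log2 fold change by the root of F, and 95% intervals use the fit's degrees of freedom. CPM uses TMM factors. Alternatives were DESeq2 1.42.0 (also with a local dispersion trend, added after the data were seen), RLE factors, library sizes alone, other filters, a replicate block, limma 3.58.1 on log2(FPKM + 1) and log2(FPKM + 0.1), ELAPOR1 left out, stricter thresholds and each library left out. Labels do not say whether libraries are separate cultures, so the spread behind each p-value is that between libraries and may be only technical. Nor do they say whether a group rests on more than 1 selected population. A difference between populations that arose at infection or selection therefore cannot be told apart from an effect of ELAPOR1. Pairs within groups had a mean chi-square per gene of 2.45 to 3.64, above the 1 of sampling noise. Tested on simulated counts with 200 changed genes in this comparison (15522 genes), edgeR recovered 74% of 1.25-fold and 84% of 1.5-fold changes, with 10 false among 189 calls. Changed genes were not drawn from the lowest expression levels and were far fewer than the 3427 genes called in the data. No fold below 1.25 was simulated, while called members rose by 1.09-fold (ATG13) to 1.25-fold (ATG7). The rates thus do not give the sensitivity for the members. Members and lists were chosen with earlier results of these data known. Named genes are every called member, all ATG8 and receptor genes, other members by value, and up to 5 called genes per direction of the wider list. WDR45B and BNIP3 of the wider list, which were not called, are also given. Genes in the closing observations were named after their values were seen.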

Additional observations from a re-analysis of the deposited data

How the results depend on the processing

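Of the 13 called members, SQSTM1, MAP1LC3B and TAX1BP1 kept their call under all 16 alternatives other than stricter thresholds, and the other 10 did not keep it under 1 or more of them, with no change of direction. DESeq2 called 10 members (16.0% of all genes), with 1037 of all genes higher and 3 lower in the wider list. With a local dispersion trend it called 12 (19.1% of all genes). That setting called 3263 of 17065 genes, as did the authors' deposited comparison, so these are no separate checks. limma on log2(FPKM + 1) called 5 members (14.3% of all genes), 1 of them higher, 10 genes of the wider list, 5 higher, and 2133 of all genes, 727 higher, with a member median of 0.0352. With a pseudocount of 0.1 these were 5, 1, 10, 5, 2098, 713 and 0.0434; the cause was not tested. At an adjusted p under 0.01, fewer passed by construction: 2245 of all genes, 1015 higher, 8 members, 3 lower, and 3 lower in the wider list. With log2 changes of 0.5 or more there were 874 of all genes (511 higher, 363 lower), 0 members (0 higher, 0 lower) and 3 in the wider list (2 higher, 1 lower). The member median was 0.0570 with library sizes alone. Under the replicate block it was 0.0688, with 13 members and 3361 genes called, changing no call of a named gene; same-numbered libraries deviated together only at 0.017, 0.021 and 0.029, too weakly to pair them, though 6 of 6 correlated best with their own number, at most a hint from the data. Leaving out 1 library gave 7 to 10 members (3 to 6 higher, 2 to 5 lower), 11 (without ELAPOR1 library 3) to 18 genes of the wider list (3 to 7 lower), 2723 to 3187 of all genes and member medians of 0.0337 to 0.0706. Of the uncalled members 9 changed sign under some alternative, none called there: RB1CC1 was at -0.0111 with library sizes alone and -0.0110 and -0.0117 with limma, ATG12 at -0.0123, -0.0108 and -0.0118, and MAP1LC3A at -0.0478 with the pseudocount of 0.1. Leaving out 1 library, the ranges were -0.0393 to 0.0426 for RB1CC1, -0.0659 to 0.0479 for PIK3C3, -0.0696 to 0.198 for WIPI1, -0.105 to 0.0724 for ATG4D, -0.0289 to 0.0524 for ATG12, -0.0466 to 0.0235 for ATG16L1, -0.517 to 0.485 for MAP1LC3A, -0.352 to 0.0418 for MAP1LC3B2 and -0.186 to 0.0712 for TP53INP2. Depth limits MAP1LC3A and MAP1LC3B2, with as few as 14 and 29 counts per library.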

Other observations

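The following called genes of the wider list were picked after their values were seen. BCL2L1, an anti-apoptotic gene whose protein binds Beclin 1, rose from 196 ± 7.62 to 225 ± 6.30 CPM (SD, n = 3; edgeR adjusted p 2.07e-05) and kept its call under the 16 alternatives other than stricter thresholds. TBC1D5, a Rab GTPase activating protein of retromer and autophagosomes, rose from 82.6 ± 2.82 to 97.96 ± 6.35 CPM (adjusted p 7.89e-05, and 0.0506 by limma on log2(FPKM + 1)). CALCOCO1, an ER-phagy receptor and paralog of CALCOCO2, rose from 39.8 ± 3.73 to 47.5 ± 1.26 CPM (adjusted p 0.00303, 0.0682 without vector library 2 and 0.0969 by limma on log2(FPKM + 1)).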
